A study of Mus musculus with 66 samples.

Results

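A set of genes for secreted or receptor proteins of the activin family and of activity-regulated signalling were followed through 66 hippocampal libraries: Inhba, Acvr1c, Bmp3, Nptx2, Bdnf, Vgf, Scg2 and Penk. All 8 were found by symbol among the 55421 genes of each deposited table. They were chosen by their values in single libraries of 3-month mice at the earliest time, where Inhba was high, so those libraries are given as a description and without a test. The tissue was hippocampus of C57BL/6 mice, a common inbred strain, injected with a brain extract, and the series title names seeded tauopathy. The extract came from brain with Alzheimer's disease (AD) or from control brain (Ctrl), and the labels name no transgene. The mice were labelled 3 or 12 months old and were collected at 1, 3 or 5 months post injection (mpi). Of 3-month mice there were 5 Ctrl with 6 AD libraries (1 mpi), 5 with 5 (3 mpi) and 5 with 3 (5 mpi). Of 12-month mice there were 5 with 6, 6 with 6 and 7 with 7. Whether a labelled age refers to injection or collection is not stated, and neither is whether libraries come from separate mice, so the tests rest on variation between libraries that may be technical. Levels are the deposited RPM values (reads scaled to library size) divided by 1 factor per library.

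Activins are dimers of inhibin beta subunits. They bind type II receptors, which recruit and activate type I receptors, and the receptors phosphorylate Smad proteins that move to the nucleus. In the hippocampus, Inhba and Bdnf are known as genes that strong synaptic activity induces in neurons, and Nptx2, Vgf, Scg2 and Penk belong to the same later wave of secreted products that follows the immediate early transcription factors. Neuropeptide and granin precursors are stored in dense-core vesicles and released with activity.

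Promoter sequence is shown for the members that later results turn on and that have one, since a cAMP response element (CRE) is the classical activity-responsive motif. RefSeq promoter entries (GRCm38.p6) matched 4 of the 8 members in 11 windows, and the 250 bases before each annotated start were searched on both strands. The motifs were the CRE TGACGTCA, its shorter core TGACG with the complement CGTCA, and the AP-1 motif TGANTCA. The full CRE contains the core on each strand. Of 32851 promoter windows of the same length, 1.55% held the CRE, 17.8% the core and 6.75% the AP-1 motif. Capitals mark a motif, and sequences run 5′ to 3′ on the gene's strand.
Inhba, plus strand, chr13:16011601-16011850: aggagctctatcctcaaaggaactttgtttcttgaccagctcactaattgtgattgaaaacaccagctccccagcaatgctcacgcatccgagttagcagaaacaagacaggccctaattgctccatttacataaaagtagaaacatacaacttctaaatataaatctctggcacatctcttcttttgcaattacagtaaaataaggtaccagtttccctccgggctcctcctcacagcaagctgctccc
Acvr1c, minus strand, start farther upstream of 2, chr2:58357759-58358008: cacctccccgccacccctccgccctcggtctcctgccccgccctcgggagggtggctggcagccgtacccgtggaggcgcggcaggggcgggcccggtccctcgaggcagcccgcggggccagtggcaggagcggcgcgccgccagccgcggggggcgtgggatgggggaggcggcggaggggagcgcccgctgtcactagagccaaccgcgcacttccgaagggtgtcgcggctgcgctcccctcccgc
Bdnf, plus strand, window 3 of 7, chr2:109692186-109692435: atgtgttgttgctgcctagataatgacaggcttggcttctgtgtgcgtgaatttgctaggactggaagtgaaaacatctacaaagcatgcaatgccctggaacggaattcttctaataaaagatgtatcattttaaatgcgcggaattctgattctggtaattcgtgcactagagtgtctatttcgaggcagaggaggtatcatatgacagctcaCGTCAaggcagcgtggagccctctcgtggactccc
Scg2, minus strand, chr1:79440027-79440276: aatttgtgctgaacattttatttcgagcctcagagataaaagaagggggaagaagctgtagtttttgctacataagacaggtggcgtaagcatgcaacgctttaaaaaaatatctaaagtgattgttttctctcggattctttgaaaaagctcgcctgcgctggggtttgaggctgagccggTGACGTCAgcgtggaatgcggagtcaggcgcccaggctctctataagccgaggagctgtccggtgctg
The Scg2 window held a full CRE beginning 68 bases before the start. Of the 7 Bdnf windows only the window shown held the core, beginning 35 bases before its start, and 17.8% of all windows held it. Window 2 of Bdnf (not shown) held 1 AP-1 motif. None of these letters occurred in the Inhba window or in either Acvr1c window. A match is a description of the sequence only.

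All 8 genes are protein coding in the GENCODE vM21 annotation of GRCm38. Inhba lies on chromosome 13 (16011851 to 16031621, plus strand), Acvr1c on chromosome 2 (58267453 to 58357895, minus) and Bmp3 on chromosome 5 (98854415 to 98884396, plus). Nptx2 (144545902 to 144557478, plus) and Vgf (137026392 to 137033351, plus) are also on chromosome 5. Bdnf is on chromosome 2 (109674700 to 109727007, plus), Scg2 on chromosome 1 (79434669 to 79440120, minus) and Penk on chromosome 4 (4133531 to 4138819, minus). Exons of Acvr1c, Bdnf and Penk overlap those of Gm13544, Gm45346 and A830012C17Rik on the opposite strand. The use of strand in counting is not given in the sources used here, so reads of these pairs cannot be told apart.

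The members differed widely in abundance. Per kilobase of exon, the median level over the 18 libraries of 3-month mice at 3 and 5 mpi was 95.7 for Scg2, 35.7 for Vgf, 13.0 for Penk, 7.37 for Nptx2, 7.26 for Bdnf, 3.12 for Acvr1c, 1.41 for Inhba and 0.995 for Bmp3. The granin family precursors Scg2 and Vgf thus stood at the top and the activin and BMP ligands at the bottom. Even the lowest member was well covered: Bmp3 had 241 to 3320 reads per library and Inhba 332 to 4413. Library totals ran from 42462638 to 65907005 reads.

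**Figure D1:**
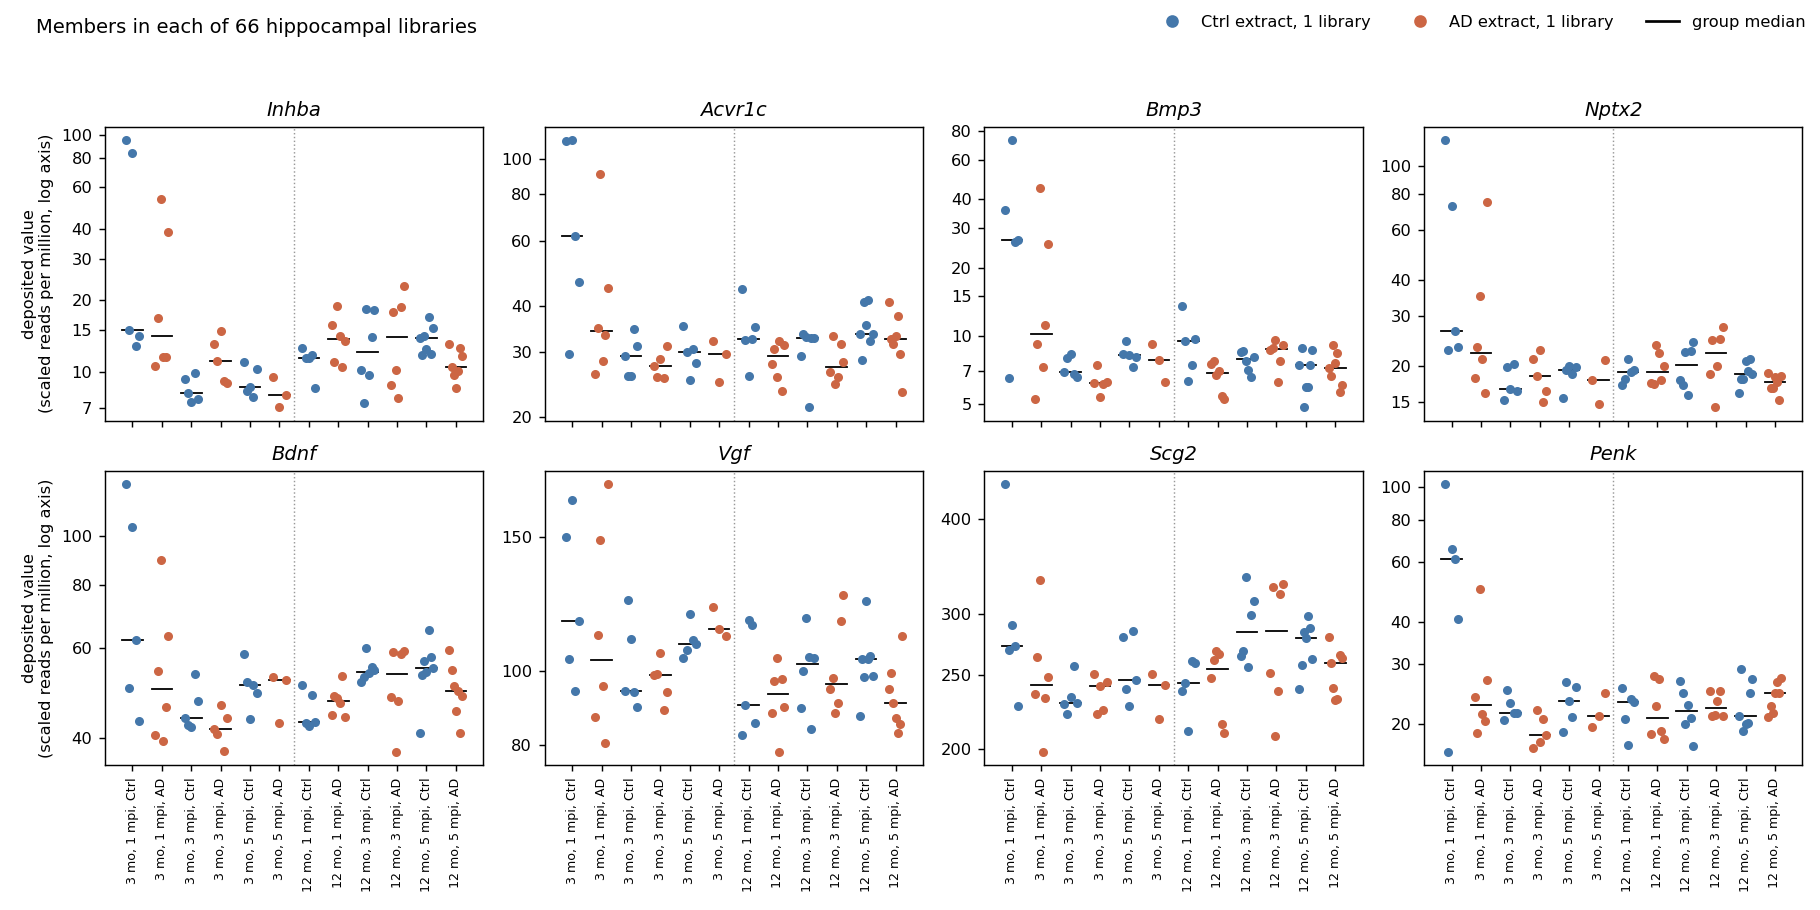
Deposited level (scaled RPM, log axis) of each member in every library. Each point is 1 library, black bars are group medians, and the dotted line separates 3-month from 12-month mice. Inhba reaches 95.1 in 3-month mice at 1 mpi and lies between 7.08 and 23.1 in all other groups.

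In 3-month mice at 1 mpi, Inhba, the inhibin beta A subunit that pairs to form activin A, was far above the other libraries in 4 of 11, 2 from each extract, and above the range of the later times in 6. The Ctrl libraries 1 to 5 had 95.1, 15.1, 84.1, 12.8 and 14.1. The AD libraries 1 to 6 had 10.5, 16.8, 53.5, 11.6, 11.6 and 38.9. The 18 libraries of the same age at 3 and 5 mpi ran from 7.08 to 14.8 with a median of 9.04, so the highest 1 mpi library stood 10.5 times above that median. Ctrl 2 and AD 2, at 15.1 and 16.8, lay just above the range, and Ctrl 5, at 14.1, just inside it. The ranges of the 2 extracts overlapped.

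Acvr1c encodes ALK7, a type I receptor of the activin and Nodal branch. It measured 111, 29.7, 112, 61.8 and 46.2 in Ctrl 1 to 5, and 26.1, 34.8, 90.6, 28.4, 33.3 and 44.8 in AD 1 to 6. The 18 libraries of 3 and 5 mpi ran from 24.8 to 35.1. The 4 libraries with high Inhba were above this range, as were Ctrl 4 and Ctrl 5.

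Bmp3, an atypical BMP family ligand that opposes BMP signalling, had the widest spread of the 8 genes at 1 mpi, 13.9 times between the lowest and highest library. It measured 36.0, 6.51, 73.3, 26.0 and 26.6 in Ctrl 1 to 5, and 5.29, 9.18, 45.1, 7.32, 11.2 and 25.4 in AD 1 to 6, against 5.37 to 9.45 in the 18 libraries. Of the 11 libraries, 7 lay above that range, and the lowest, AD 1, lay below it.

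Nptx2 encodes a secreted neuronal pentraxin that clusters AMPA receptors at excitatory synapses. Its values were 124, 22.8, 72.9, 26.6 and 23.3 in Ctrl 1 to 5 and 18.1, 23.5, 35.1, 21.1, 16.2 and 75.0 in AD 1 to 6, against 14.8 to 22.8 in the 18 libraries. AD 6 exceeded AD 3 for Nptx2, although AD 3 had more Inhba, Acvr1c and Bmp3.

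Bdnf, the ligand of the receptor TrkB, measured 126, 50.1, 104, 62.3 and 43.2 in Ctrl 1 to 5. It measured 40.4, 54.0, 89.5, 39.3, 45.9 and 63.5 in AD 1 to 6, and the 18 libraries ran from 37.7 to 58.4. Of the 11 libraries, 5 were above the range.

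The granin family precursors had the smallest spread. Vgf, cleaved into several neuropeptides, measured 150, 104, 168, 94.3 and 117 in Ctrl 1 to 5 and 87.1, 112, 149, 95.6, 80.5 and 176 in AD 1 to 6, against 89.0 to 124. Scg2, the precursor of secretoneurin, measured 444, 269, 291, 273 and 228 in Ctrl 1 to 5 and 236, 264, 333, 198, 233 and 248 in AD 1 to 6, against 219 to 286. The highest 1 mpi library was 1.66 times the median of the 18 libraries for Vgf and 1.84 times for Scg2.

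Penk, the proenkephalin precursor of opioid peptides, measured 102, 16.6, 65.6, 61.3 and 40.8 in Ctrl 1 to 5. In AD 1 to 6 it measured 24.0, 18.8, 49.9, 21.4, 20.4 and 27.0, against 17.0 to 26.5 in the 18 libraries. It was thus above the range in Ctrl 1, 3, 4 and 5 and in AD 3 and AD 6.

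Counted by library, Ctrl 1, Ctrl 3 and AD 3 had all 8 members above the range of the 18 libraries, and AD 6 had all but Scg2. Ctrl 4 had 5 members above it and Ctrl 5 had 4. Both included Acvr1c, Bmp3, Nptx2 and Penk, with Inhba inside the range. Ctrl 2 and AD 2 had 2 each (Inhba and Nptx2), AD 5 had 1 (Bmp3), and AD 1 and AD 4 had 0. Since these libraries gave rise to the choice of members, these counts only describe them. Among all 14823 genes of mean value 1 or more, the share above the same range was 16% in Ctrl 1, 5.94% in Ctrl 2, 21.4% in Ctrl 3, 6.29% in Ctrl 4 and 6.74% in Ctrl 5. It was 13.4% in AD 1, 10.4% in AD 2, 17.4% in AD 3, 12% in AD 4, 6.59% in AD 5 and 18.2% in AD 6. The deepest of the 66 libraries was AD 6, with 65907005 reads. The other 10 libraries of these groups held 44948800 to 50618688.

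**Figure D2:**
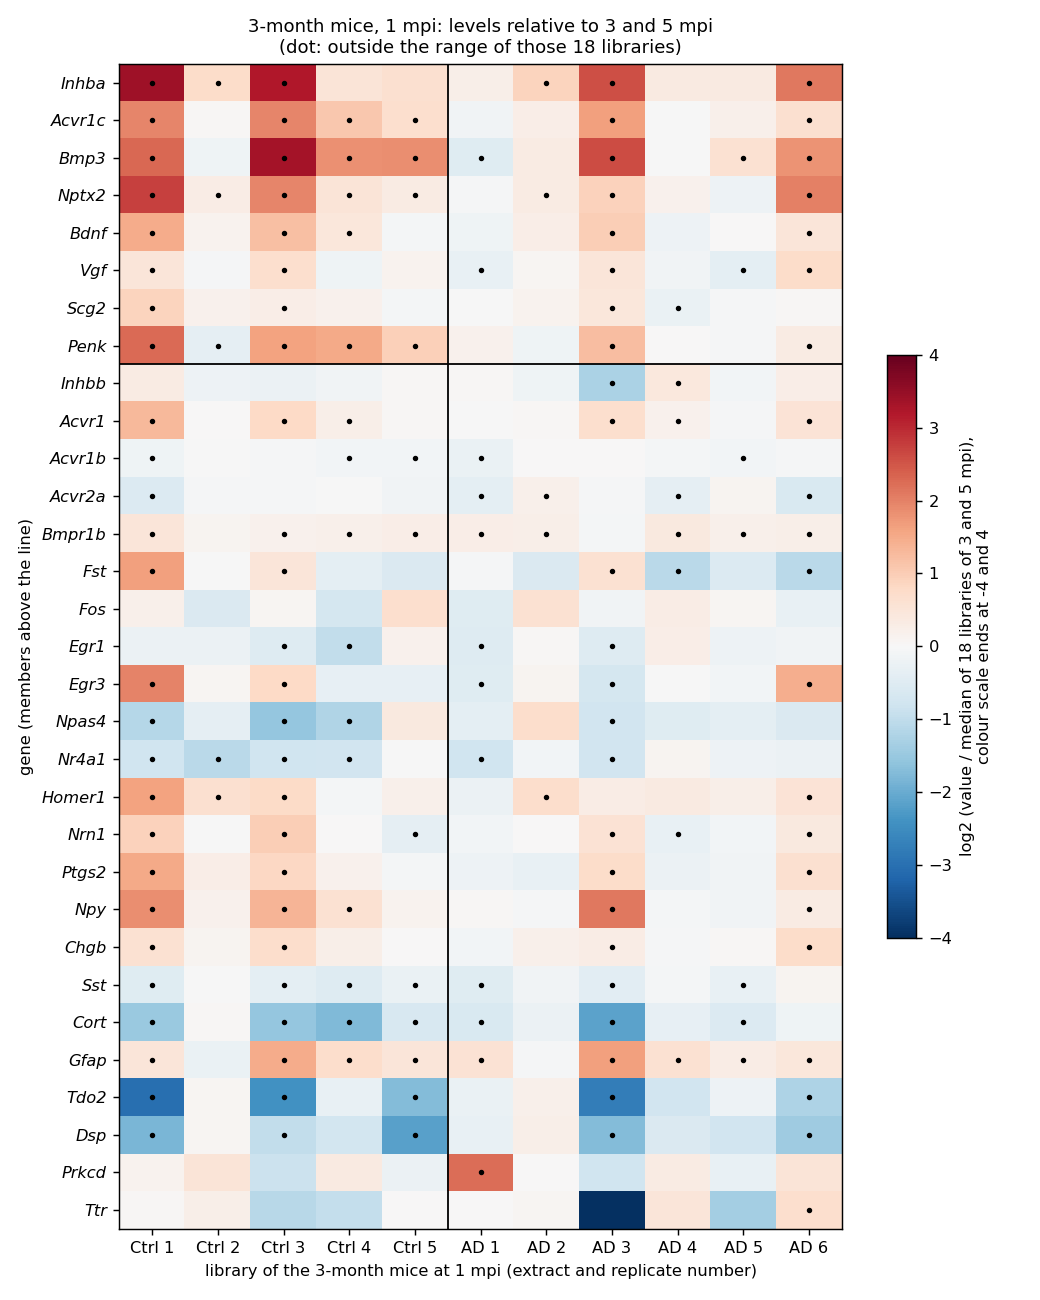
Levels in the 11 libraries of 3-month mice at 1 mpi, as log2 of the ratio to the median of the 18 libraries of 3 and 5 mpi. Dots mark values outside the range of those 18 libraries, and the genes below the line were chosen for display after their values were seen. All 8 members are above the range in Ctrl 1, Ctrl 3 and AD 3, and all but Scg2 in AD 6. Ctrl 4 has 5 members above it and Ctrl 5 has 4. Fos lies inside the range in all 11 libraries, while Egr3, Npas4 and Homer1 leave theirs in some.

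The rest of the activin pathway differed between receptors in the same libraries. Acvr1, a type I receptor of the BMP branch, measured 100.3 in Ctrl 1, 70.2 in Ctrl 3, 64.0 in AD 3 and 59.1 in AD 6, against 36.3 to 44.2 in the 18 libraries. It was also above that range in Ctrl 4 and AD 4, where Inhba was inside its own range. Acvr1b, the principal type I receptor for activin A, lay between 104 and 127 in all 11 libraries above the range of 117 to 134 in 0 and below it in 5. The type II receptor Acvr2a was below its range of 59.5 to 75.5 in Ctrl 1 (48.2) and AD 6 (45.5), and inside it in Ctrl 3 and AD 3 (67.9 and 67.6). The other detectable activin and inhibin subunits, Inhbb and Inha, were above their ranges in 1 and 0 libraries, and the 1 was AD 4 (Inhbb 9.59). Inha was below its range of 4.94 to 9.67 in Ctrl 1 (4.14), Ctrl 3 (3.55) and AD 6 (4.53), and Inhbb was below its range of 4.40 to 9.38 in AD 3 (2.997). Inhbc was listed at 0 in every library of both 1 mpi groups. Fst, the secreted inhibitor follistatin, measured 4.42 in Ctrl 1, 1.99 in Ctrl 3 and 2.13 in AD 3, against 0.680 to 1.93, and 0.666 in AD 6, below that range. Of the 11 receptors listed besides Acvr1c, 4 were above their range in Ctrl 1, 5 in Ctrl 3, 2 in AD 3 and 2 in AD 6, and 3, 3, 2 and 1 were below it. AD 4 and AD 1, with 0 members above the range, had 4 and 3 receptors above it, so the receptor counts did not follow the member counts.

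Of 12 genes of the later activity-regulated wave that are not members, 9 were above the range in Ctrl 1, 8 in Ctrl 3, 6 in AD 3 and 6 in AD 6, where 16% to 21.4% of all genes were. These 4 libraries were singled out by high Inhba, on which the members were chosen, so the counts given here are a description only. The 12 genes also share a list with the 8 members. The other 7 libraries had 0 to 2 of the 12 above the range. Below it were Kcnj4 in Ctrl 3, and Pcsk1, Kcnj4 and Tac1 in AD 3. Rasgrp1, Npy, Nrn1 and Ptgs2 were above it in all 4 libraries. Npy, the precursor of neuropeptide Y, measured 78.9 in Ctrl 1, 55.5 in Ctrl 3, 95.3 in AD 3 and 27.2 in AD 6, against 19.5 to 26.9. Nrn1, a secreted promoter of neurite growth, measured 354, 371, 279 and 244 in those 4 libraries, against 161 to 208. Ptgs2, the inducible cyclooxygenase, measured 95.7, 58.4, 55.4 and 51.6, against 25.2 to 44.9. Of 18 immediate early genes, which respond to activity first, 5 were above the range in Ctrl 1, 3 in Ctrl 3, 0 in AD 3 and 3 in AD 6, while 3, 8, 11 and 0 were below it. Of all genes, 17.6%, 18.6%, 17.4% and 14.6% were below it in these libraries. Fos measured 11.5, 10.6, 9.04 and 8.24, inside the range of 5.12 to 17.9. Npas4 was below its range of 4.17 to 17.4 in Ctrl 1 (3.15), Ctrl 3 (2.34) and AD 3 (3.997). Those above the range were Fosb, Fosl2, Arc, Egr3 and Homer1 in Ctrl 1, Fosl2, Egr3 and Homer1 in Ctrl 3, and Fosb, Egr3 and Homer1 in AD 6. Egr3 measured 402, 177, 61.4 and 274 in Ctrl 1, Ctrl 3, AD 3 and AD 6, against 74.1 to 110.5, and Homer1 measured 421, 233, 169 and 199, against 103 to 189. Outside these 4 libraries the 18 immediate early genes varied as well. AD 2 had 7 of them above the range and 0 below it, where 10.4% of all genes were above. Below it were 10 in AD 1, 7 in Ctrl 4 and 5 in Ctrl 2, where 18.5%, 12.2% and 6.35% of all genes were.

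Partners of the other members also moved unevenly. The pentraxin receptor gene Nptxr was above its range in Ctrl 1, Ctrl 3 and AD 6, and Nptx1 in these and in Ctrl 2, AD 2 and AD 3. The granin Chga was above its range of 84.0 to 116 in Ctrl 1, Ctrl 3 and AD 3, at 121, 188 and 248, and Chgb in these and in AD 6. Oprd1, the delta opioid receptor at which enkephalins act, measured 22.7, 20.6 and 21.2 in these 3 libraries, against 11.3 to 16.2, and 15.3 in AD 6, inside that range. Npy, as given above, was above its range in each library with high Inhba, and also in Ctrl 4, where Inhba was inside its range. Several other neuropeptide precursors did not follow the Inhba values. Cort (cortistatin) measured 1.55, 1.501 and 0.999 in Ctrl 1, Ctrl 3 and AD 3, below the range of 3.42 to 6.04, and Sst (somatostatin) 97.5, 105 and 101, below 116 to 163. Both were also below their ranges in Ctrl 4, Ctrl 5, AD 1 and AD 5, where Inhba was inside its range, and neither was in AD 6. Tac2 was above its range in Ctrl 1, Ctrl 4 and AD 3, and Pnoc in Ctrl 2, AD 3 and AD 6.

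Some markers of other cells and regions lay outside their ranges in these libraries too, and their part in the member values was not tested. The 7 dentate granule cell markers summed to between 157 and 442 in Ctrl libraries and 209 and 351 in AD libraries at 1 mpi. Below their range were 3 of the 7 in Ctrl 1, 4 in each of Ctrl 3, AD 3 and AD 6, and also 4 in Ctrl 5. Going the other way, Prox1 and Pdzd2 were above their ranges in Ctrl 1 and Pdzd2 in Ctrl 3. Within this list Tdo2 measured 0.732, 1.10, 0.866 and 2.52 in Ctrl 1, Ctrl 3, AD 3 and AD 6, below the range of 3.15 to 8.74, while Ctrl 5, with Inhba inside its range, had 1.79. Of 5 astrocyte markers, summing to 1909 to 3196 in Ctrl and 2142 to 3278 in AD libraries, Gfap reached 1712 in Ctrl 3 and 1908 in AD 3, against 449.5 to 687, and was above that range in 9 of 11 libraries. The list was mixed in Ctrl 3 and AD 3: Aqp4 was also above its range in both, while Gja1 was below its range in both and Slc1a3 in AD 3. The 8 choroid plexus markers summed to 5100 in Ctrl 1, 2331 in Ctrl 3, 172 in AD 3 and 7818 in AD 6. Against the 18 libraries of 3 and 5 mpi, 0 of the 8 were above or below their range in Ctrl 1, Ctrl 3 and AD 3, and 4 were above it in AD 6. The 6 thalamus and habenula markers were highest in AD 1, where no member was above the range (sum 421, Prkcd 146). None of the markers in these 4 lists was at 0 throughout a group. All 5 oligodendrocyte markers were above their ranges in AD 6, AD 1 and AD 4, 3 in Ctrl 5, and 0 in Ctrl 1, Ctrl 3 and AD 3. Of 5 microglia markers, 3 were above in AD 6 and AD 1, 5 in AD 4, and 1 each in Ctrl 1, Ctrl 3 and AD 3. Of 6 hippocampal excitatory neuron markers, 1 was above in Ctrl 1, 3 in Ctrl 3, 4 in AD 3 and 2 in AD 6. Below were 1 in AD 3, 3 in AD 1 and 2 in Ctrl 5. In bulk tissue, fewer cells of a type and less RNA per cell cannot be told apart.

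Outside those 11 libraries the members ranged less widely. Inhba in 3-month mice measured 9.32, 8.16, 7.42, 9.89 and 7.70 in Ctrl and 13.1, 11.1, 14.8, 9.12 and 8.96 in AD libraries at 3 mpi. At 5 mpi it measured 11.0, 8.31, 8.63, 7.85 and 10.3 in Ctrl and 9.46, 7.08 and 7.99 in AD libraries. All 5 AD libraries of 3 mpi stood above the Ctrl mean of 8.50 ± 1.06 (SD, n = 5), with overlapping ranges. In 12-month mice, the Ctrl libraries of 1 mpi measured 12.6, 11.4, 11.5, 11.7 and 8.58. The other groups of 12-month mice had a lowest, median and highest Inhba of 10.4, 13.8 and 18.9 (AD, 1 mpi), 7.37, 12.1 and 18.3 (Ctrl, 3 mpi), 7.73, 14.01 and 23.1 (AD, 3 mpi), 11.7, 13.8 and 17.0 (Ctrl, 5 mpi) and 8.57, 10.5 and 13.1 (AD, 5 mpi). The 3 mpi groups of 12-month mice were the most spread for Inhba. Over all 37 libraries of 12-month mice the members ranged by 1.61 (Vgf and Scg2) to 3.13 times (Inhba) between the lowest and highest library.

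The group means of each member were ordered within an age, and only neighbours in that order were compared. Of 40 neighbouring pairs of group means in 3-month mice, 2 differed by more than the larger SD of the pair, and of 40 in 12-month mice 0 did. Neighbours in an order are the closest means, so these counts cannot show whether groups farther apart differ. The pairs of 3-month mice also include the 1 mpi groups on which the members were chosen. The highest 2 group means of 3-month mice were those of 1 mpi for each member but Scg2, with SDs as large as 41.6 for Inhba in Ctrl (mean 44.2, n = 5). In all 48 comparisons of AD with Ctrl libraries of 1 member at 1 age and time, the 2 extracts overlapped. No such count was made over all genes, and the 48 include the 1 mpi groups of 3-month mice on which the members were chosen. The count is therefore a description only.

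No member passed limma's test for the AD extract, in which p-values were adjusted by Benjamini-Hochberg over all genes and a call is an adjusted p under 0.05. Differences are on the log2 scale of value + 1. In 12-month mice, 0 of 8 members were called for the mean over the 3 times (0.00996% of 20084 genes called), at 1 mpi (0.00498%), at 3 mpi (0%) or at 5 mpi (0.0548%). In 3-month mice, 0 of 8 were called at 3 mpi (0% of 19976 genes) and at 5 mpi (0%). At an unadjusted p under 0.05 there was 1 member for the mean (Acvr1c), where 15.3% of all genes reached it, and 1 at 1 mpi of 12-month mice (Bmp3), where 12.1% did. In the other 4 comparisons 0 members and 3.96% to 8.49% of all genes did, so the members stood near the background. edgeR's quasi-likelihood test and DESeq2 on recovered reads also called 0 of 8 in each.

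Acvr1c in 12-month mice was lower with AD extract by a mean log2 difference of -0.15 (SE 0.067, limma adjusted p = 0.299). Its group means at 1, 3 and 5 mpi were 34.0, 30.4 and 35.1 in Ctrl and 28.5, 28.2 and 32.7 in AD libraries, and all 6 AD libraries of 1 mpi lay below the Ctrl mean. Bmp3 at 1 mpi measured 13.6, 9.44, 6.34, 7.43 and 9.68 in Ctrl libraries and 5.27 to 7.72, with a median of 6.86, in AD libraries. Its log2 difference was -0.41 (SE 0.142, limma adjusted p = 0.272), again with 6 of 6 AD libraries below the Ctrl mean. For Inhba the difference was 0.28 at 1 mpi, 0.10 at 3 mpi and -0.32 at 5 mpi, and at 5 mpi 7 of 7 AD libraries lay below the Ctrl mean of 13.8 ± 1.93 (SD, n = 7). The adjusted p at 5 mpi was 0.649 by limma. The intervals of the mean difference show what these data allow. For the 8 members together, the 95% intervals lay between -0.28 and 0.25, the widest being that of Inhba (-0.21 to 0.25).

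Precision was lower in 3-month mice, whose shared spread includes the 1 mpi libraries. The Inhba difference at 3 mpi was 0.37 with a 95% interval of -0.55 to 1.29 (limma adjusted p = 0.977). Fitted without the 1 mpi groups, the same difference had an adjusted p of 0.569 by limma, and 0 members were called. The pathway lists gave 0 called genes in the AD comparisons of either age.

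**Figure D3:**
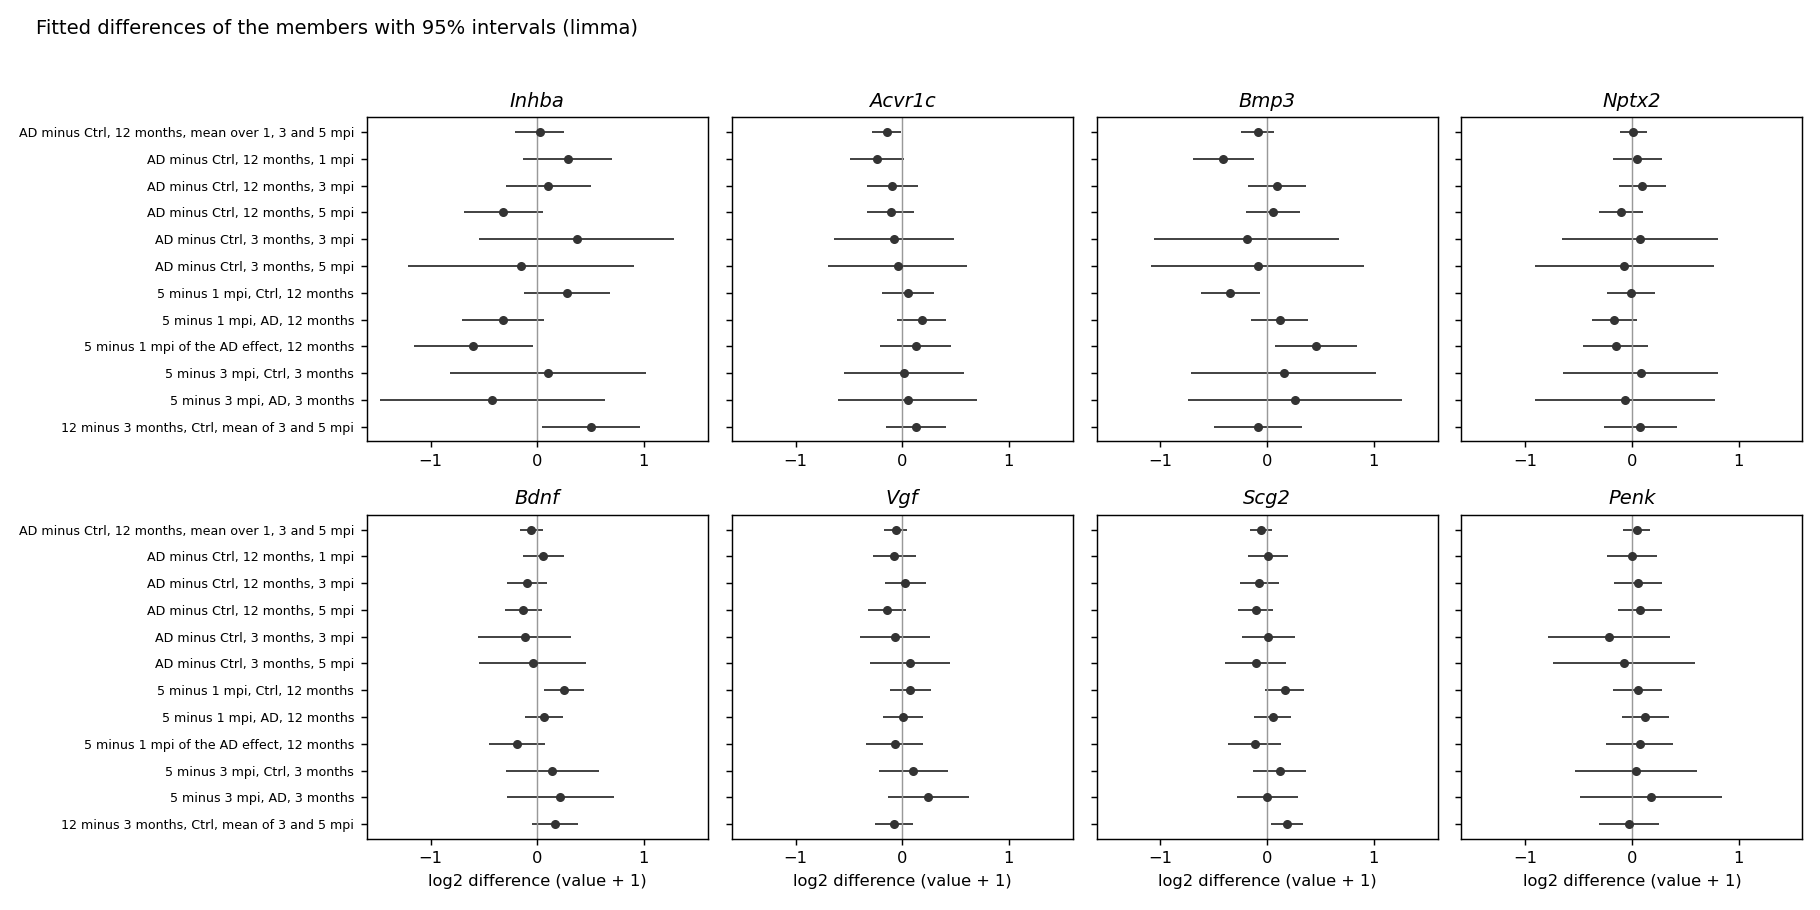
Fitted log2 differences of the 8 members (value + 1) in 12 comparisons, with 95% intervals from limma. The intervals of 3-month mice are wider than those of 12-month mice, and no member passed the adjusted threshold of 0.05.

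No member passed the test for time after injection either. In 12-month mice, 5 against 1 mpi gave 0 of 8 called members in Ctrl (0.0249% of all genes called), 0 in AD libraries (0.762%) and 0 for the difference of the AD effect between the 2 times (0.00498%). Unadjusted p-values under 0.05 were found for 2, 0 and 2 members, and for 6.81%, 14% and 5.83% of all genes. In Ctrl libraries the 2 were Bmp3, with -0.34 (SE 0.137, adjusted p = 0.58, limma), and Bdnf, with 0.25 (SE 0.0932, adjusted p = 0.526). For the AD effect they were Inhba, with -0.60 (SE 0.276, adjusted p = 0.833), and Bmp3, with 0.46 (SE 0.189, adjusted p = 0.823). These comparisons share libraries with the AD comparisons above. In 3-month mice, 5 against 3 mpi gave 0 of 8 called members in Ctrl (0.00501% of all genes) and 0 in AD libraries (5.23%), with 0 members at an unadjusted p under 0.05 in each, where 9.01% and 20% of all genes reached it. edgeR and DESeq2 called 0 members in these 5 comparisons.

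Vgf in AD libraries of 3-month mice passed under 1 other setting. It measured 98.9, 99.0, 106, 89.0 and 94.0 at 3 mpi and 121, 114 and 111 at 5 mpi, so that all 3 later libraries lay above the earlier 5. The log2 difference was 0.25 (SE 0.184, limma adjusted p = 0.502), and with only these 2 groups in the fit the adjusted p was 0.0191, where 11.3% of genes were called. Without the 1 mpi groups it was 0.0582, and 0 members were called. Of the pathway lists in this comparison, Bmpr1a fell from 92.8 to 78.9 and Smad5 from 51.0 to 42.6, while Cck rose from 132 to 170.3 (adjusted p = 0.0187, 0.00185 and 0.0304, limma). The 8 choroid plexus markers differed in the same comparison, from a summed 5581.4 to 7316 at 3 mpi down to 56.3 to 813 at 5 mpi. With their level as a covariate the count of called genes went from 1045 to 4. That level did not overlap between the 2 groups, so the fit cannot separate it well from time, and no conclusion is drawn from the lost calls. In that fit Bmpr1a (-0.096, adjusted p = 0.653, limma), Smad5 (-0.22, 0.209) and Cck (0.57, 0.142) no longer passed. Without the covariate their log2 differences were -0.23, -0.25 and 0.36.

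No member passed the test between the ages in Ctrl libraries. The tables of the 2 ages were scaled separately by the authors, so the reads were scaled together here, and age and table cannot be told apart. Over 3 and 5 mpi, 0 of 8 members were called, while 17.4% of 21297 genes were. At an unadjusted p under 0.05 there were 2, Inhba and Scg2, where 30% of all genes reached it, so the members stood no higher than the background. edgeR and DESeq2 also called 0 members. The mean level of Inhba was 13.4 in 12-month and 8.85 in 3-month Ctrl libraries. The log2 difference was 0.51 (SE 0.230, limma adjusted p = 0.124). For Scg2 it was 0.19 (SE 0.0748, adjusted p = 0.0739) and for Bdnf 0.17 (SE 0.109, adjusted p = 0.313). With only the Ctrl groups compared in the fit, which leaves out the spread of the 1 mpi libraries, 3 members were called where 22.3% of genes were: Inhba (adjusted p = 0.00237), Scg2 (0.00711) and Bdnf (0.0394). With choroid plexus markers as a covariate, 0 members were called and the adjusted p was 0.371 for Inhba (0.34) and 0.406 for Scg2 (0.096). Nptx2, Vgf, Penk, Acvr1c and Bmp3 were not called in any of these fits.

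Of 18 immediate early genes, 5 were higher in 12-month Ctrl libraries and 0 lower, where 17.4% of all genes were called in either direction, and 13 did not pass. The 5 were Fos (17.6 against 11.7), Fosl2 (69.4 against 52.5), Nr4a2 (77.7 against 57.5), Nr4a3 (119 against 93.8) and Homer1 (188 against 136), with limma adjusted p-values from 0.00722 to 0.0206. The median log2 difference of the 18 genes was 0.22, against -0.0073 over all genes. Of the other 12 genes of the later wave 1 was called, Tac1 (11.2 against 9.25, adjusted p = 0.0146), the precursor of substance P. Among 12 receptors 2 were called, a share near that of all genes: Tgfbr1 rose (50.6 against 43.2, adjusted p = 0.00307) and Acvr2b fell (3.19 against 3.92, adjusted p = 0.0304). Grem1, a secreted BMP antagonist, rose (8.12 against 6.15, adjusted p = 0.00469), and Smad5 rose (52.1 against 48.0, adjusted p = 0.0373). None of the 3 tested activin and inhibin ligands and none of 10 tested BMP and GDF ligands passed. In the same comparison choroid plexus markers were lower in 12-month Ctrl libraries, for example Clic6 (31.7 against 72.5, adjusted p = 0.0318), and with these markers as a covariate Fos (adjusted p = 0.0514, limma) and Acvr2b (0.0916) no longer passed. Fosl2, Nr4a2, Nr4a3, Homer1, Tac1, Tgfbr1, Grem1 and Smad5 still passed.

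Within groups, Nptx2 and Scg2 rose and fell with Inhba among the 37 libraries of 12-month mice. The rule used no value of these libraries, but earlier results of them were known when the members were chosen. The fit asked, for every gene, how its log2 value changed per log2 unit of Inhba among libraries of the same group. The slope was 0.35 for Nptx2 (SE 0.0733, limma adjusted p = 0.00472) and 0.32 for Scg2 (SE 0.0554, adjusted p = 9.26e-04). So 2 of 7 members were called, where 5.18% of 20083 genes were, 710 with a positive and 330 with a negative slope. edgeR's quasi-likelihood test called the same 2, where 4.86% of genes were called. For Nptx2, Pearson's r of the deviations from the group means was 0.65 (permutation p = 0.00277) and Spearman's rho 0.63 (p = 0.00183). For Scg2, r was 0.71 (permutation p = 6.6e-04) and rho 0.72 (p = 2.1e-04). These are 2 of 7 relations computed, and the adjusted p-values are those of the slopes over all genes. Without the 2 libraries farthest from the median Inhba deviation, both AD libraries of 3 mpi, r was 0.62 and 0.65.

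The other 5 members did not pass. Bdnf had a slope of 0.20 (SE 0.0718, limma adjusted p = 0.0941), Vgf 0.17 (SE 0.0763, 0.178) and Acvr1c 0.18 (SE 0.0968, 0.293). Bmp3, which was high with Inhba in single 1 mpi libraries of 3-month mice, had a slope of 0.0038 (SE 0.117, adjusted p = 0.990), and Penk had -0.17 (SE 0.0912, 0.277).

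**Figure D4:**
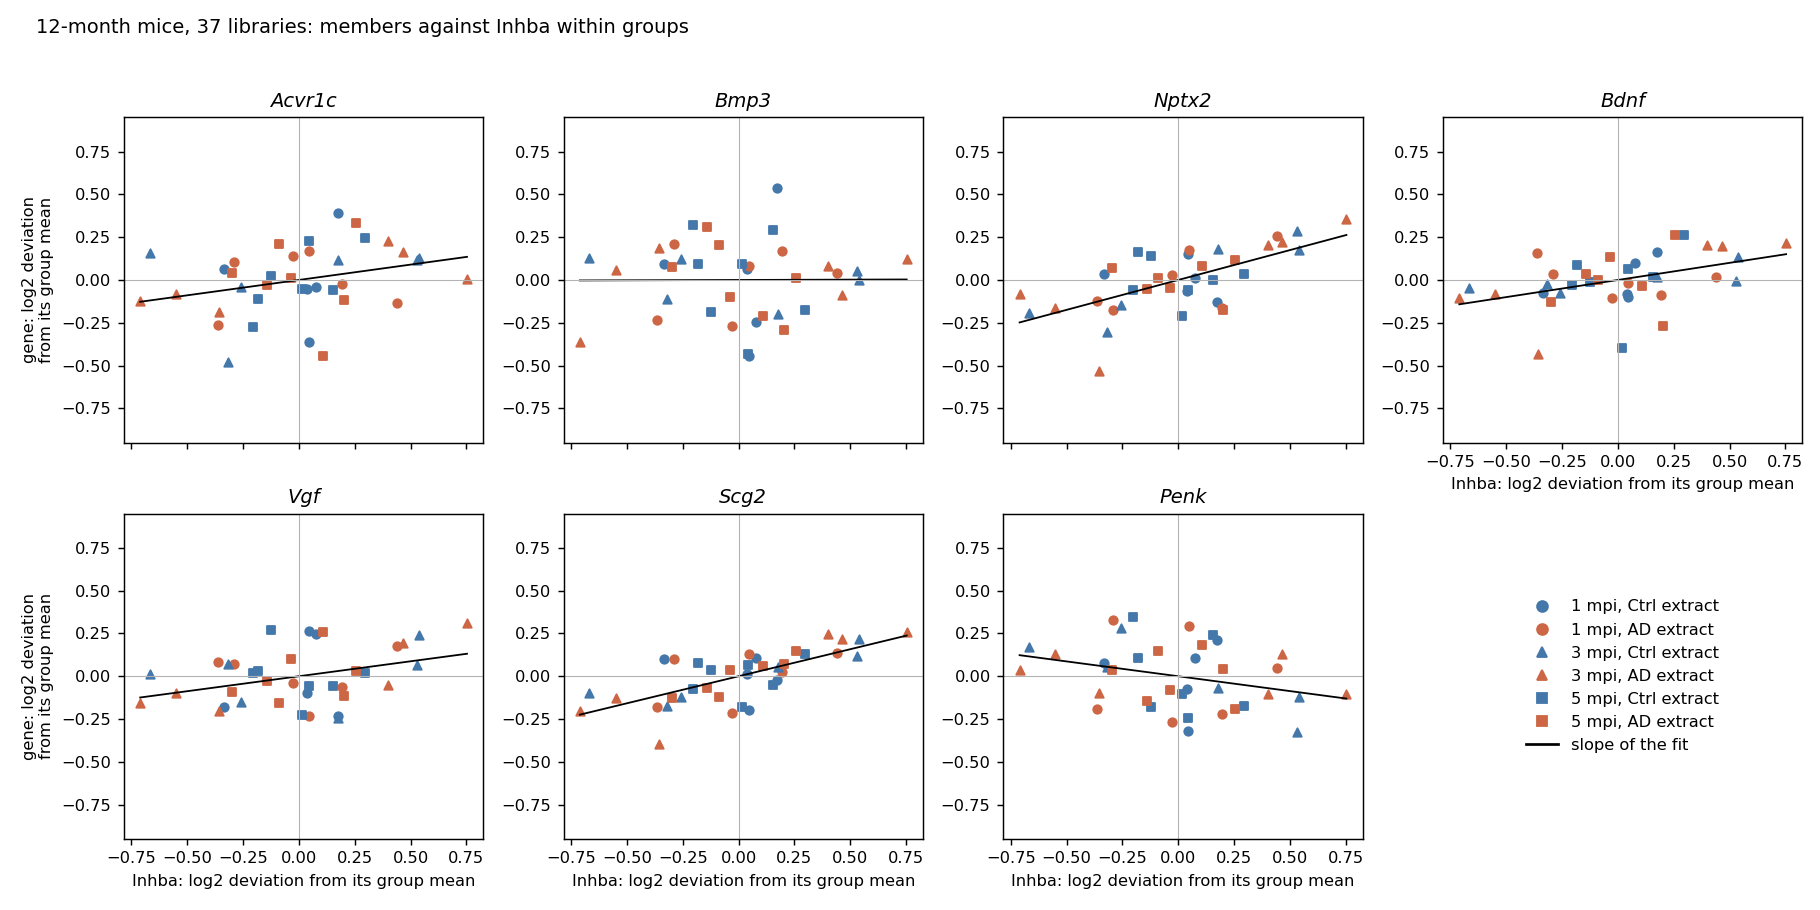
Log2 deviation of each member from its group mean (vertical) against that of Inhba (horizontal) in the 37 libraries of 12-month mice, with the fitted slope as a line. Triangles are libraries of 3 mpi, which span the widest range of Inhba. The lines rise for Nptx2 (0.35) and Scg2 (0.32) and are nearly flat for Bmp3 (0.0038).

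Taken by time, the calls held within 3 mpi only. There, Scg2 ranged from 256 to 335 in Ctrl and 208 to 328 in AD libraries, and Nptx2 from 15.9 to 24.4 and 14.4 to 27.5. Alone, the 12 libraries of 3 mpi gave slopes of 0.43 for Nptx2 (limma adjusted p = 0.0270) and 0.35 for Scg2 (0.00909), where 1.57% of genes were called. Within 1 mpi the slopes were 0.26 and 0.13 (adjusted p = 0.652 and 0.832), and within 5 mpi -0.091 and 0.32 (0.954 and 0.790), so neither passed and Nptx2 changed sign at 5 mpi. At 1 and at 5 mpi 0 genes were called in all. In the 18 libraries of 3-month mice at 3 and 5 mpi, 0 of 19530 genes were called and 1343 had an unadjusted p under 0.05. The slope of Nptx2 there was 0.43 (SE 0.204, adjusted p = 0.705), of Bdnf 0.36 (SE 0.136, 0.705) and of Scg2 0.18 (SE 0.114, 0.724).

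The 8 choroid plexus markers all had negative slopes in these libraries, with a median of -1.51 log2 units per log2 unit of Inhba, and 0 of 8 were called. With their summed level as a covariate, the slopes were 0.31 for Nptx2 (limma adjusted p = 0.0205) and 0.27 for Scg2 (0.00573), so both calls held. With dentate granule markers as the covariate they were 0.33 (0.0177) and 0.26 (0.00497).

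Of 18 immediate early genes, 6 were called with Inhba in 12-month mice, all with positive slopes, and 17 of 18 slopes were positive (median 0.25, against -0.0067 over all genes). They were Fosb (0.73, limma adjusted p = 0.00262), Homer1 (0.54, 1.52e-04), Fosl2 (0.46, 0.00174), Nr4a2 (0.44, 0.00207), Nr4a3 (0.34, 0.0156) and Egr3 (0.26, 0.0119). Among later genes outside the members, the slope passed for Pcsk1, the prohormone convertase that cleaves granin and opioid precursors (0.39, 0.0119), and for Crh, corticotropin-releasing hormone (0.35, 0.0485). Among neuropeptides Cort also passed (0.52, 0.0121). Ngfr, the low-affinity neurotrophin receptor, had a negative slope (-0.36, 0.0353). Of 10 glucocorticoid-induced genes, Fkbp5 (0.32, 0.0215) and Plin4 (0.91, 0.0187) passed. The activin and inhibin ligands, the receptors, the BMP and GDF ligands, the inhibitors and the Smads gave 0 called genes, as did the markers of regions and cell types.

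The 5 genes whose deviations were most like those of Inhba in the 37 libraries of 12-month mice were Dio2 (r = 0.83), Cep85 (0.80), Kdm7a (0.79), Zbtb40 (0.79) and Pdpk1 (0.79), given as a description. Dio2 is the deiodinase that activates thyroid hormone. Scg2 ranked 53 and Nptx2 146 by the same measure, and Penk ranked 17598.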

How the data were processed

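Poly(A) RNA of mouse hippocampus was sequenced in 66 libraries, grouped by the age, time and extract in the labels. The submitters' processing notes name STAR, Picard, edgeR and GRCm38. Tool versions, gene annotation, read counting and strand handling are not given in these sources. Each deposited table (1 per age) holds a signal for every gene: reads-per-million divided by 1 factor per library (0.957 to 1.04). Values are whole multiples of 1 read's worth, and 100% came out whole at a tolerance of 0.01 reads (largest deviation 1.41e-04), which recovered the reads. Within groups, every pair of libraries differed beyond sampling noise (lowest chi-square/df 5.44).

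limma-trend (limma 3.58.1, R 4.3.3) was fitted per table to log2(value + 1) with 1 mean per group, after edgeR 4.0.16's filterByExpr on recovered reads (19976 genes of 3-month and 20084 of 12-month mice). Fold changes on this scale understate changes of low genes. The ages were compared over all 12 groups on recovered reads scaled by TMM (21297 genes). Slopes on Inhba were fitted with group means in the model. P-values were adjusted by Benjamini-Hochberg over all genes. Correlations used 1e+05 permutations. All 8 members passed the filter. edgeR's quasi-likelihood test and DESeq2 1.42.0 on recovered reads, other scalings, pseudocounts, filters, covariates and fits without each library were alternatives. The fits were checked on simulated data.

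The members, lists and comparisons were chosen with earlier results of these data known. Named genes were the members, the called genes of each list or its most abundant genes, and the 5 genes most like Inhba by Pearson's r (mean log2 value at least 1). Other list genes in the 3-month libraries of 1 mpi were named after their values were seen. Annotation came from GENCODE vM21 and promoters from RefSeq.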

Additional observations from a re-analysis of the deposited data

Results flagged for a closer look

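A single library stood far from the others of its group in 2 of 72 groups of 4 to 10 libraries tested (8 members in 9 groups), by a gap test that flags about 1 in 20 groups by chance. Both were low values: Acvr1c in Ctrl 4 of 12-month mice at 3 mpi (21.2) and Nptx2 in Ctrl 1 of 3-month mice at 5 mpi (15.5). The 3-month groups of 1 mpi were left out, since the members were chosen on them.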

How the results depend on the processing

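Counts of members called stayed within 1.5 times in 153 of 159 alternatives. The exceptions were 1 member for 5 against 3 mpi in 3-month AD libraries with only the compared groups in the fit. For 12 against 3 months they were 1 with the dentate granule covariate (Scg2, 0.20, adjusted p = 0.0235, limma) and 3 with only the compared groups. For the slope on Inhba they were 0 within 1 mpi, 0 within 5 mpi and 0 in the 18 libraries of 3-month mice, the last chosen after seeing the data, as was edgeR for the slopes (2 called). Leaving out 1 library gave 0 called members in each of the 12 comparisons and 2 to 3 for the slope (Bdnf, adjusted p = 0.0453 without AD 6 of 12-month mice at 5 mpi). Of 1261 member values, 4 reversed: Bdnf for AD extract at 3 mpi in 12-month mice with the dentate granule covariate (0.014), Scg2 for 5 against 3 mpi in 3-month Ctrl libraries with the choroid plexus covariate (-0.020), and the slopes of Bdnf within 1 mpi (-0.033) and Nptx2 within 5 mpi (-0.091). The cause was not tested. A sign change was counted only where the value was called or exceeded its SE. Comparisons of all groups have no separate fit of only the compared groups.

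Counts of all genes called moved more. They ran from 0 to 163 for the mean AD difference of 12-month mice (2 in the fit reported), 0 to 42 at 1 mpi (1), 0 to 2 at 3 mpi (0) and 0 to 27 at 5 mpi (11). In 3-month mice they ran from 0 to 1 at 3 mpi (0) and 0 to 7 at 5 mpi (0). For 5 against 1 mpi they ran from 1 to 38 in Ctrl (5), 5 to 289 in AD libraries (153) and 0 to 5 for the AD effect (1). For 5 against 3 mpi they ran from 0 to 270 in Ctrl (1) and 4 to 2427 in AD libraries (1045). For the slope they ran from 596 to 1088 in other fits over the 3 times together (1040) and from 683 to 1297 without 1 library, and were 0, 283 and 0 within 1, 3 and 5 mpi and 0 in the 18 libraries. For 12 against 3 months the split of higher and lower calls went from 1790 and 1906 to 1911 and 1312 with upper-quartile scaling.

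The labels link same-numbered AD and Ctrl libraries by the number alone, and state no pairing. Their deviations correlated at -0.39 to 0.64 over the 6 age and time groups. At 1, 3 and 5 mpi the same number was the best match for 2 of 5, 1 of 5 and 0 of 3 pairs of 3-month mice. In 12-month mice it was for 0 of 5, 2 of 6 and 4 of 7. With the number as a replicate block 0 members were called in each of the 12 comparisons and 2 for the slope (Nptx2 0.36 and Scg2 0.37).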
